A study of Arabidopsis thaliana with 18 samples.

Results

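The genes described here are the 100 Arabidopsis thaliana genes whose transcripts stood highest after 2 h of abscisic acid (ABA) relative to both untreated seedlings and seedlings kept in ABA for 4 h. They were chosen from the measured values. For each gene the mean level was taken over the 6 libraries of each time point, with both genotypes together, as TPM, a level scaled by transcript length and library size. Of the 32833 genes listed, 14467 had a mean of at least 5 TPM at 2 h. These were ranked by log2 of the 2 h mean over the larger of the mock and 4 h means, after adding 1 TPM to each, and the top 100 were kept. Levels and steps between time points therefore describe the choice itself, and no test of them is given. The genotypes were averaged by this rule, and bro1-1 was tested against WT within each time point. A gene could still enter through 1 genotype alone, and where it did, its difference between genotypes is tied to the choice.

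RNA was sequenced from seedlings aged 2 weeks, grown on half-strength MS medium with sucrose. WT was Col-0, and bro1-1 carries a T-DNA insertion in an intron of AtBro1, which encodes a protein with a BRO1-like domain; it is 1 insertion line in the Col-0 background. Each genotype was sampled without ABA (mock) and at 2 h and 4 h of treatment with 100 µM ABA. These 6 groups had 3 libraries each, described by the submitters as independent biological replicates. Values of a group are given in the order of replicates 1, 2 and 3. There was 1 mock group per genotype, so hours of ABA, time of day and handling cannot be told apart in any step between time points.

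ABA is the plant hormone of drought and seed dormancy. It binds soluble receptors that inhibit type 2C protein phosphatases, which frees SnRK2 kinases to phosphorylate bZIP factors that bind ACGT-containing promoter elements. Some of the genes that follow belong to the circadian clock, an oscillator in which the morning MYB factors CCA1 and LHY repress evening genes and the PRR proteins in turn repress CCA1 and LHY, and to the light-signalling B-box zinc finger family.

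Libraries held 15568032 to 17853167 expected counts. AtBro1 ranged over 11.2 to 18.5 TPM in WT and 8.02 to 10.4 TPM in bro1-1 at mock, over 279 to 386 and 119 to 143 at 2 h, and over 243 to 391 and 104 to 125 at 4 h, so bro1-1 libraries were lower than WT libraries but not at 0. All 9 genes of a core ABA list, among them RD29B and the phosphatase gene HAI1, were called higher at 2 h in both genotypes by edgeR. Of all genes tested, 10.9% were so called in WT and 13.4% in bro1-1. None of the 9 was a member. Among tissue markers, the leaf gene RBCS1A was abundant, 4 of 5 root markers had means under 5 TPM at 2 h, and all 3 floral markers averaged under 1 TPM at every time point. The seed storage genes CRU3, CRA1 and SESA3 stood at 350, 274 and 161 TPM in the bro1-1 mock library of replicate 3 and at no more than 0.1 TPM in the other mock libraries. At lower levels CRU3 and CRA1 were also read in bro1-1 at 2 h in replicate 1 (12.5 and 8.48 TPM) and replicate 3 (3.43 and 2.14) and at 4 h in replicate 3 (4.48 and 7.57), against at most 0.55 TPM in any WT library. Without the mock library the rule kept 96 of the 100 genes, and no member was called between the genotypes at mock, as with it. In these whole seedlings, fewer cells of a type and less RNA per cell cannot be told apart.

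The members reached a median mean level of 27.8 TPM at 2 h, from 5 to 1809 TPM. The 2 h mean exceeded mock by a median of 2.38 on the log2 scale with 1 TPM added (1.00 to 5.94), and exceeded 4 h by a median of 1.25. The smaller of these 2 steps, which is the ranking value, ran from 0.98 to 3.74 with a median of 1.19. The last genes kept were FH8 at 0.99, BRS1 at 0.98 and AFR at 0.98, and the first left out were PIF7 at 0.97, MYB49 and LHCB2.1. In 77 members all 6 libraries at 2 h were above all 6 at mock, which held for 15.4% of the 14467 genes. In 42 members all 6 were above all 6 at 4 h (3.66% of genes), and in 35 they were above all 12 others (1.09%). These shares follow from the choice of genes. In the heat map of levels by library, the 6 columns of 2 h form the brighter central block in both genotypes.

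**Figure D1:**
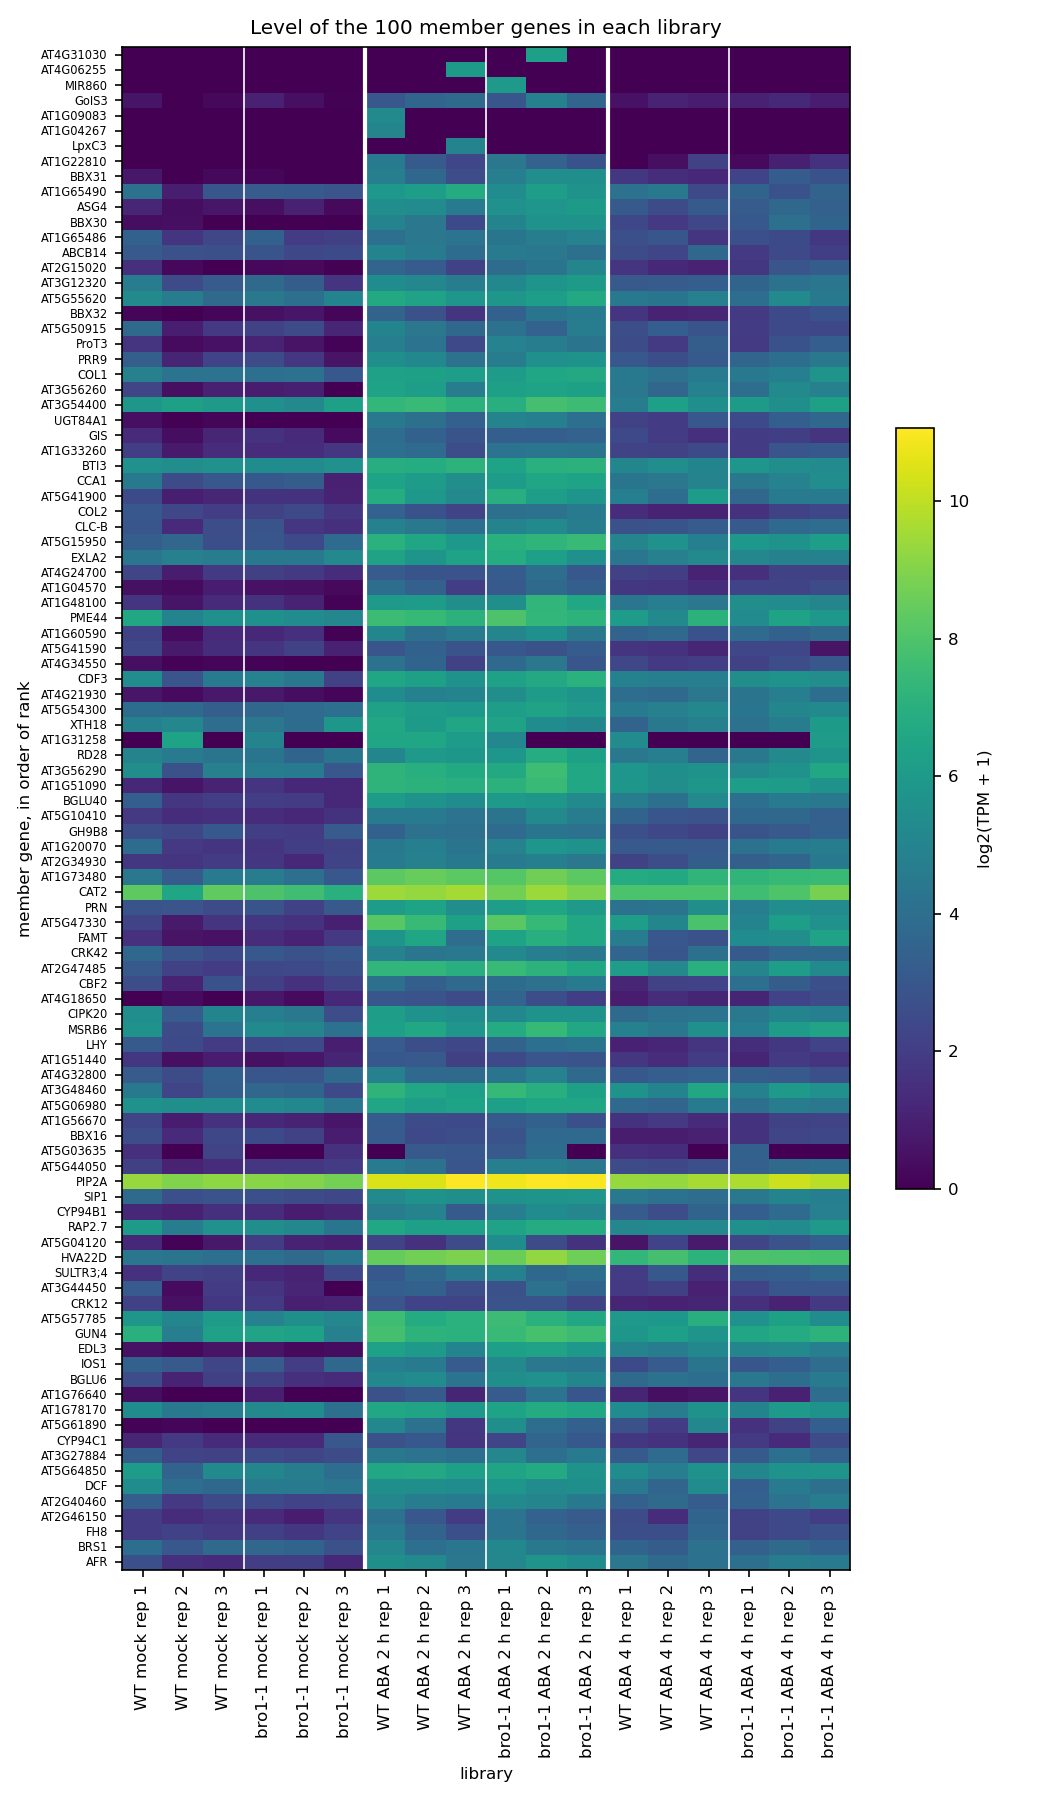
Level of each of the 100 genes (rows, in order of rank) in each of the 18 libraries (columns, by time point and genotype), as log2(TPM + 1). The median over the genes lay between 1.48 and 2.63 in the mock libraries, between 4.38 and 5.36 at 2 h and between 3.08 and 3.95 at 4 h, and rows with a single bright cell rest on 1 library.

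The members differed in how far they returned by 4 h. The 4 h mean was above the mock mean in 78 members and below it in 16, and it was at least 2-fold above mock in 46, within 2-fold in 53 and at least 2-fold below in 1. The median 4 h level was 0.78 above mock on the log2 scale. The 53 and this median include the 6 members read in only 1 library at 2 h, which had no reads at mock or 4 h. The 3 members that stayed furthest above mock were AT5G47330, an alpha/beta-hydrolase, at 4.78, AT1G51090, a heavy metal-associated domain protein, at 4.65, and EDL3, an F-box protein that acts in ABA signalling, at 4.53. The 3 furthest below were the clock-linked genes LNK4 (AT5G06980) at -1.05, LHY at -0.74 and COL2 at -0.64. The 2 steps of every member are set beside those of all genes over 5 TPM in the scatter plot.

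**Figure D2:**
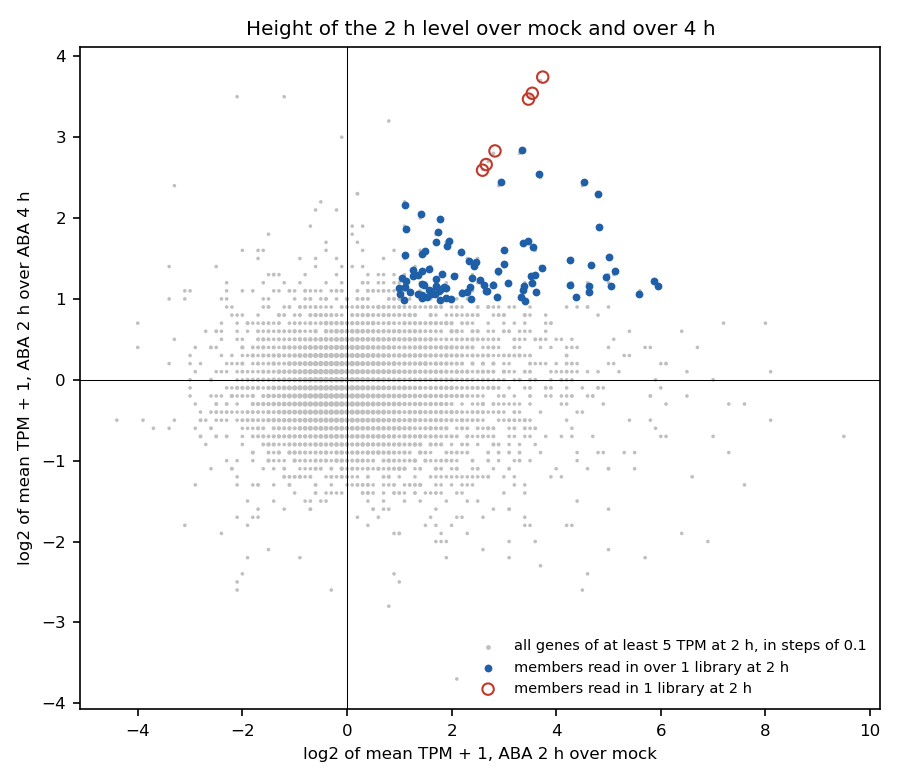
Each member by its 2 h level over mock (x axis) and over 4 h (y axis), both as log2 of mean TPM + 1, with all 14467 genes of at least 5 TPM at 2 h in grey. Members lie above 0.97 on both axes by the rule, the 6 read in only 1 library at 2 h are ringed, and the x axis spreads from 1.00 to 5.94 while most members lie below 2 on the y axis.

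The very top of the ranking was made of reads in single libraries. AT4G31030, a putative membrane lipoprotein with a transcript of 135 bases, was ranked first on 2 counts in 1 bro1-1 library. The snoRNA genes AT4G06255, AT1G09083 and AT1G04267 and the miRNA precursor MIR860 held 1 count each in 1 library at 2 h, which their short transcripts turned into 32.0 to 63.9 TPM. None of these 5 had a read at mock or 4 h.

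LpxC3 (AT1G25054), an enzyme of lipid A synthesis, was the sixth such gene, with 426.7 expected counts in the WT 2 h library of replicate 3 and 0 in the other 5. Its near-identical copy LpxC4 held 0 in that same library and 488.86, 610.08, 547.72, 484.06 and 455.56 in the others, so reads of these copies were assigned to one or the other. Levels of LpxC3 alone are therefore uncertain. In AT5G04120, a phosphoglycerate mutase family gene, 1 bro1-1 library held 470 counts at 2 h while the other 5 held 24 to 60. The noncoding genes AT1G31258 and AT5G03635 held at most 2 and 8 counts in any 2 h library. At least 10 counts in every 2 h library were found for 91 members and at least 100 for 71.

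The largest named group, put together after the values were seen, held 14 genes of the clock and of light signalling. Its 2 h means ran from 8.23 to 89.2 TPM. CCA1, a morning MYB factor of the clock core, was ranked 29. In WT, CCA1 measured 21.2, 4.8 and 7.05 TPM at mock, 85.6, 68.2 and 43.7 at 2 h and 18.9, 19.7 and 30.04 at 4 h. In bro1-1, CCA1 measured 7.24, 8.49 and 1.01 TPM at mock, 66.3, 94.1 and 85 at 2 h and 20.3, 29.5 and 41.8 at 4 h. All 6 libraries at 2 h were above the 12 others, and the mean was 3.01 above mock and 1.43 above 4 h on the log2 scale.

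LHY, the partner of CCA1, had lower levels at every time point. In WT, LHY measured 7.9, 4.4 and 2.96 TPM at mock, 7.97, 5.4 and 4.17 at 2 h and 1.01, 1.28 and 2.14 at 4 h. In bro1-1, LHY measured 4.31, 4.39 and 0.88 TPM at mock, 10.5, 15.3 and 18.1 at 2 h and 1.77, 2.48 and 3.84 at 4 h. WT libraries at 2 h overlapped those at mock, whereas each bro1-1 library at 2 h was above every mock library. PRR9, the first of the PRR repressors to be expressed in the day, moved more. In WT, PRR9 measured 9.17, 1.18 and 3.66 TPM at mock, 45.2, 35 and 16.5 at 2 h and 6.92, 5.34 and 7.88 at 4 h. In bro1-1, PRR9 measured 4.91, 2.41 and 0.48 TPM at mock, 25.1, 46 and 48.3 at 2 h and 11.1, 15.2 and 20.5 at 4 h. Its 2 h libraries were all above mock, and the lowest of them, WT replicate 3, overlapped the 4 h range.

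ASG4 (RVE3), a MYB factor related to CCA1, started near 0. In WT, ASG4 measured 1.3, 0.34 and 0.59 TPM at mock, 42.6, 39.3 and 22.1 at 2 h and 7.83, 4.78 and 7.77 at 4 h. In bro1-1, ASG4 measured 0.37, 1.05 and 0.21 TPM at mock, 46.9, 54.1 and 64.4 at 2 h and 8.05, 12 and 9.51 at 4 h. All 2 h libraries exceeded all others, with a mean 4.8 above mock and 2.3 above 4 h. The coactivator genes LNK3 (AT3G12320) and LNK4 (AT5G06980), whose family works with the RVE factors, differed in how far they fell. In WT, LNK3 measured 23.8, 4.88 and 7.98 TPM at mock, 40.8, 33.5 and 25 at 2 h and 7.44, 8.08 and 8.99 at 4 h. In bro1-1, LNK3 measured 13.1, 8.52 and 2.29 TPM at mock, 35.5, 51.5 and 64.2 at 2 h and 11, 17.2 and 19.2 at 4 h. All 6 libraries of LNK3 at 2 h lay above its 12 others. In WT, LNK4 measured 50.9, 45.3 and 42.2 TPM at mock, 90.8, 73.5 and 84.7 at 2 h and 12.7, 11.3 and 23.6 at 4 h. In bro1-1, LNK4 measured 39.3, 34.6 and 19.4 TPM at mock, 75, 93.3 and 89.6 at 2 h and 15.8, 24.2 and 20.8 at 4 h. Its 2 h libraries were above the rest as well. LNK4 at 4 h was below mock in every WT library, and in bro1-1 the groups overlapped.

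**Figure D3:**
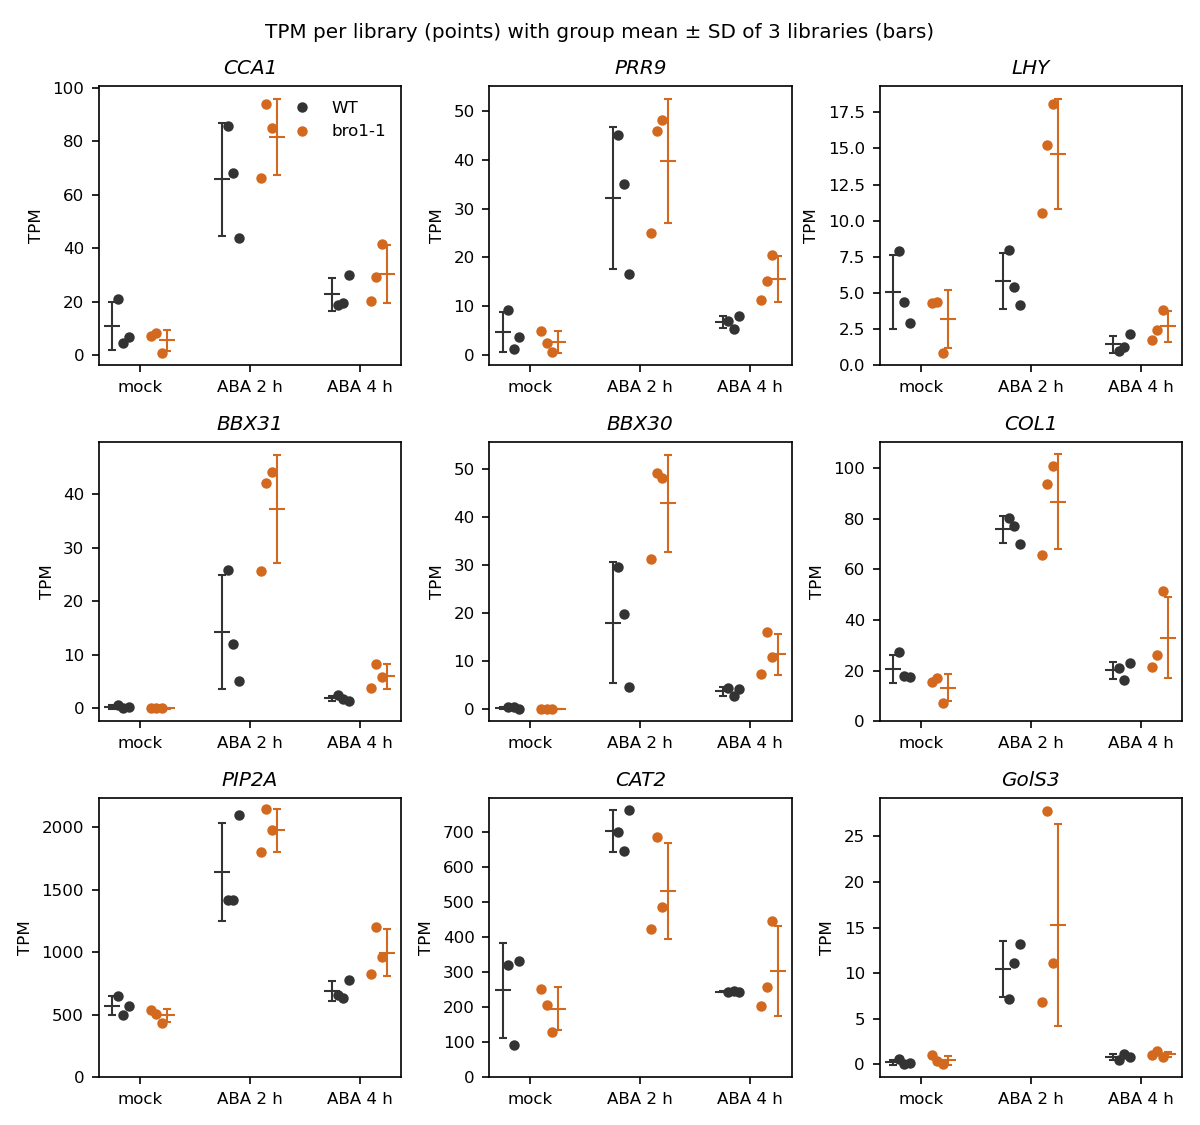
TPM in each library of 9 members at mock, 2 h and 4 h of ABA, with WT in black and bro1-1 in orange; bars give the group mean with the SD of 3 libraries, and each panel has its own scale. In CCA1, COL1, PIP2A and GolS3 all 6 points at 2 h lie above all others, while in LHY the WT points at 2 h (4.17 to 7.97 TPM) overlap those at mock.

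From the B-box family 6 genes were members out of 31 on a list of the family, 23 of which reached 5 TPM at 2 h. BBX30 and BBX31 encode small B-box proteins that act as microproteins on CONSTANS. In WT, BBX31 measured 0.63, 0 and 0.17 TPM at mock, 25.9, 12 and 5.07 at 2 h and 2.42, 1.77 and 1.43 at 4 h. In bro1-1, BBX31 measured 0.16, 0 and 0 TPM at mock, 25.7, 42.1 and 44.1 at 2 h and 3.72, 8.26 and 5.91 at 4 h. The WT replicate 3 library of BBX31 at 2 h lay within the 4 h range, and the 5 others were above it. In WT, BBX30 measured 0.32, 0.35 and 0 TPM at mock, 29.6, 19.7 and 4.56 at 2 h and 4.27, 2.6 and 4.07 at 4 h. In bro1-1, BBX30 measured 0, 0 and 0 TPM at mock, 31.2, 49.3 and 48.2 at 2 h and 7.34, 15.9 and 10.8 at 4 h. Both were near 0 at mock, and WT replicate 3 held the lowest value of the 6 at 2 h. BBX32, a light-signalling regulator of the same subgroup, had means of 0.237, 11.8 and 2.95 TPM at mock, 2 h and 4 h.

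The CONSTANS-like genes COL1 and COL2 are relatives of the flowering regulator CONSTANS. In WT, COL1 measured 27.2, 17.8 and 17.5 TPM at mock, 80.2, 77.2 and 69.98 at 2 h and 20.9, 16.5 and 22.9 at 4 h. In bro1-1, COL1 measured 15.6, 17.2 and 7.18 TPM at mock, 65.8, 93.8 and 101.0 at 2 h and 21.5, 26.2 and 51.5 at 4 h. COL1 showed no overlap between 2 h and the other time points. In WT, COL2 measured 6.94, 4.15 and 3.06 TPM at mock, 10.3, 5.94 and 3.86 at 2 h and 1.66, 1.13 and 1.12 at 4 h. In bro1-1, COL2 measured 3.38, 4.4 and 2.36 TPM at mock, 15.8, 17.1 and 21.6 at 2 h and 2.03, 3.35 and 4.21 at 4 h. COL2 in WT overlapped mock at 2 h, and in bro1-1 each of its 2 h libraries was above all mock libraries. BBX16 had means of 3.29, 8.23 and 2.16 TPM. CDF3, a DOF factor of the cycling family that represses CONSTANS, had means of 20.8, 89.2 and 36 TPM, and AFR, a kelch F-box protein of far-red light signalling, 2.75, 38.5 and 19 TPM.

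Most other clock genes did not share this course. Of 11 on a clock list, 3 were members. The evening genes TOC1 (86.2, 57.8 and 105 TPM at mock, 2 h and 4 h), LUX (61.9, 44.5 and 61.5) and ELF3 (41.8, 19.4 and 38.0) had their lowest mean at 2 h. ELF4, also an evening gene, had means of 68.6, 135 and 512 TPM and kept climbing. PRR7 had 113, 88.8 and 72.4 TPM, PRR5 80.8, 56.4 and 77.7, and GI 31.5, 42 and 41.2. RVE8, the MYB activator that the LNK proteins assist, was ranked 112 with 3.59, 7.81 and 3.22 TPM, and CDF1 was ranked 111 with 5.31, 41.4 and 21.1. Of the RVE, LNK and CDF lists, 1 of 8, 2 of 4 and 1 of 4 genes were members. The highest mean was at 2 h in 5 of 11 clock, 5 of 8 RVE, 4 of 4 LNK, 2 of 4 CDF and 13 of 31 B-box genes. Genes outside the set with this course included LNK1 (8.81, 125 and 86.6 TPM), RVE1 (8.51, 19.6 and 10.1) and BBX29 (1.33, 12.4 and 5.94). A peak at 2 h was thus not particular to the members. The plot of families shows the members beside relatives that fell, kept rising or also peaked at 2 h.

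**Figure D4:**
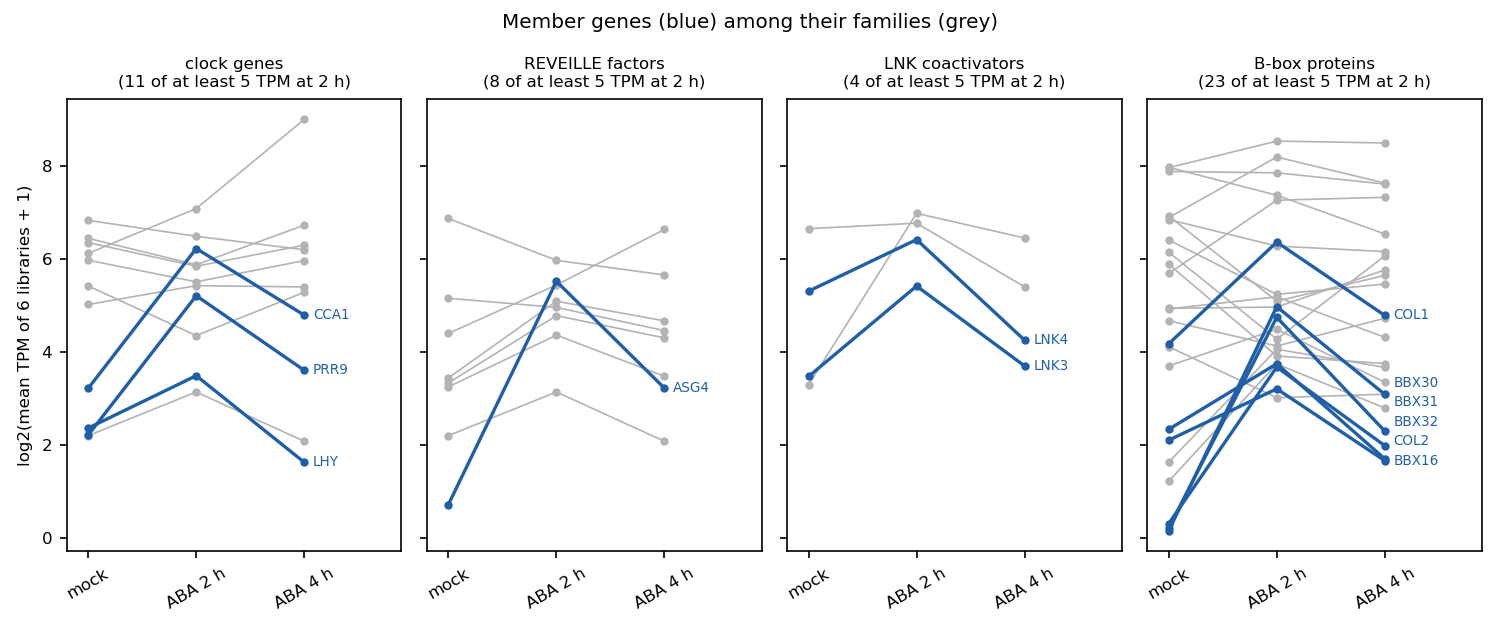
Mean level over 6 libraries at mock, 2 h and 4 h, as log2(TPM + 1), for the genes of 4 lists that reached 5 TPM at 2 h; members are blue and named, other genes grey. RVE8 appears among both the clock genes and the REVEILLE factors, and 3 of 11 clock genes, 1 of 8 REVEILLE factors, 2 of 4 LNK genes and 6 of 23 B-box genes are members.

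Some of these genes carry the G-box CACGTG just upstream. The 500 bases before each annotated start were read from the TAIR10.1 genome on both strands. CACGTG, which also contains the core ACGTG of ABA-responsive elements, was found before 22 of the 100 members (22%) and before 11.0% of 14436 genes of at least 5 TPM at 2 h. ACGTG was found before 44% and 36.6%. Among the 14 clock and light genes 6 had CACGTG, and their nearest sites are shown with 3 stress-linked members for comparison, each 30 bases long and read 5′ to 3′ towards the gene, with the G-box in capitals.
CCA1 (chr2:19245386-19245415, plus strand, 193 bases before the start): tagtgtatcagaCACGTGtcgacaaactgg
LHY (chr1:37934-37963, minus strand, 80 bases before the start): ctacaatatcacCACGTGtcgatctgcgat
PRR9 (chr2:19232423-19232452, plus strand, 172 bases before the start): ttaggttaatgaCACGTGttaaggtggacc
ASG4 (chr1:190312-190341, plus strand, 84 bases before the start): acgatcgtattcCACGTGgcaatttatgtg
LNK3 (chr3:3923362-3923391, plus strand, 141 bases before the start): caaagagagtgtCACGTGtgcctagatatc
BBX30 (chr4:8708757-8708786, plus strand, 72 bases before the start): tcaatatttttcCACGTGtacaaccagttt
GolS3 (chr1:3019531-3019560, plus strand, 96 bases before the start): ctccatttaggcCACGTGgcattatcacag
CBF2 (chr4:13016320-13016349, minus strand, 102 bases before the start): ctgtttcttatcCACGTGgcattcacagag
HVA22D (chr4:12827662-12827691, plus strand, 182 bases before the start): ttagaatctcgcCACGTGtgggataaacta
LNK3 and PRR9 had 2 sites each. Around the G-box, CCA1 and LHY share the run CACGTGtcga of 10 bases, and ASG4, GolS3 and CBF2 share cCACGTGgca. Such a match is a string of letters and not evidence that a factor binds there.

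The other strings differed in how near they lay to the share over all genes. CCGAC, the core of the element bound by CBF factors, was found before 34% of members and 23.5% of genes, the W-box letters TTGACC or TTGACT before 52% and 44.0%, CGCGTT before 6% and 4.95%, GCCGCC before 2% and 4.40%, and TATAAA before 65% and 65.9%. The 3 strings searched after the values were seen gave 12% and 9.36% for AAATATCT, the evening element, 14% and 12.6% for AAAAATCT, and 23% and 12.2% for CCACAC.

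Among the families of transcription factors outside the clock and light group, AP2/ERF factors gave the most members. By keywords in the annotation, this family had 77 eligible genes (0.532% of all eligible genes) and 4 in the set: AT1G22810, CBF2, AT4G32800 and AT5G61890. The keywords missed the member RAP2.7, an AP2 factor, so these counts are minimums. AT1G22810 measured 23.1, 7.79 and 4.17 TPM in WT and 19.8, 10.04 and 6 TPM in bro1-1 at 2 h, against at most 3.55 TPM at 4 h and 0 in all 6 mock libraries. CBF2, an activator of cold-regulated genes, was the only member from a list of 17 rapid stress AP2/ERF factors. In WT, CBF2 measured 5.06, 1.09 and 5.89 TPM at mock, 15.8, 9.27 and 13.3 at 2 h and 1.29, 3.5 and 3.66 at 4 h. In bro1-1, CBF2 measured 3.25, 2 and 3.49 TPM at mock, 14.3, 16.3 and 22.6 at 2 h and 15.4, 8.55 and 5.44 at 4 h. The bro1-1 libraries at 4 h overlapped those at 2 h and the WT libraries did not. CBF2 lies in tandem with CBF1 and CBF3, which had means of 0.84, 7.06 and 5.73 TPM and 0.33, 19.3 and 14.8 TPM and were ranked 1027 and 710. No member came from lists of 12 WRKY factors, 12 ZAT zinc fingers, 12 JAZ repressors or 12 rapid auxin genes, and since members are 0.691% of the ranked genes, a count of 0 in lists this short says little. Among the JAZ repressors of jasmonate responses, 9 of 12 had their highest mean at 2 h. The same 9 were called higher at 2 h than at mock in WT (10.9% of all genes) and in bro1-1 (13.4%) by edgeR, and 4 of them were called lower at 4 h than at 2 h in WT (1.55%) and 0 in bro1-1 (0.505%). The highest-ranked was JAZ10, at rank 106.

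Channels and transporters gave the most abundant member. PIP2A (PIP2;1), a plasma membrane aquaporin, had the highest 2 h mean of the set. In WT, PIP2A measured 649, 496 and 574 TPM at mock, 1418, 1416 and 2095 at 2 h and 659, 632 and 780.1 at 4 h. In bro1-1, PIP2A measured 543, 509 and 437 TPM at mock, 1799.8, 2146 and 1979 at 2 h and 828, 1199 and 964 at 4 h. All 6 libraries at 2 h were above the 12 others, by 1.76 over mock and 1.1 over 4 h. RD28 (PIP2;3), a related aquaporin with a near-identical neighbour in the genome that could share its reads, had means of 19.8, 66.4 and 27.5 TPM. ProT3, a proline transporter, had 0.758, 19.6 and 5.64 TPM, ABCB14, a malate importer of guard cells, 5.65, 21.1 and 5.24 TPM, and CLC-B, an anion exchanger of the vacuolar membrane, 3.99, 26.1 and 9.22 TPM.

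Enzymes of osmolytes and of redox balance followed. GolS3 makes galactinol, the donor for raffinose sugars, and was the highest-ranked member read in several libraries. In WT, GolS3 measured 0.55, 0 and 0.19 TPM at mock, 7.14, 11.1 and 13.2 at 2 h and 0.45, 1.09 and 0.78 at 4 h. In bro1-1, GolS3 measured 1.02, 0.36 and 0.06 TPM at mock, 6.89, 27.8 and 11.1 at 2 h and 1, 1.45 and 0.82 at 4 h. Its 2 h libraries did not overlap any other, and 1 of them, bro1-1 replicate 2, was more than 2-fold above the next. SIP1 (RS5), a raffinose synthase that acts on galactinol, had means of 6.64, 47.7 and 21.8 TPM. CAT2, the main leaf catalase of the peroxisome, was the second most abundant member. In WT, CAT2 measured 320.4, 93 and 332 TPM at mock, 699.9, 645 and 764 at 2 h and 245, 246 and 245 at 4 h. In bro1-1, CAT2 measured 253, 206 and 130.2 TPM at mock, 423, 686 and 487 at 2 h and 204, 258 and 447 at 4 h. WT libraries at 2 h were above every library of mock and 4 h, and bro1-1 replicate 3 at 4 h reached the bro1-1 range of 2 h. GUN4, which binds porphyrins in chlorophyll synthesis, had 71.1, 184 and 87.6 TPM, and AT5G15950, an adenosylmethionine decarboxylase of polyamine synthesis, 8.46, 124 and 47.1 TPM.

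Members linked to ABA, hormone and lipid metabolism included some of those that stayed well above mock at 4 h. HVA22D, a homologue of an ABA-induced barley gene, came after PIP2A and CAT2 in abundance. In WT, HVA22D measured 19.5, 18.1 and 15.5 TPM at mock, 353, 425 and 478 at 2 h and 159.9, 224 and 140.2 at 4 h. In bro1-1, HVA22D measured 15.5, 13.4 and 19.2 TPM at mock, 383, 610.1 and 397 at 2 h and 252, 239.7 and 231 at 4 h. No library at 2 h overlapped mock or 4 h. EDL3 ranged over 0.21 to 0.49 TPM at mock, 31 to 81.4 at 2 h and 24.2 to 36.2 at 4 h, with only WT replicate 3 at 2 h inside the 4 h range. The hydrolases AT1G73480 and AT5G47330, the next in abundance, had means of 16.2, 329 and 146 and 2.04, 186 and 82.5 TPM at mock, 2 h and 4 h. The 2 h libraries of AT5G47330 ran from 78.0 to 305 TPM, and WT replicate 3 at 4 h held 239 TPM, above 4 of them. CYP94B1 and CYP94C1, which oxidise the hormone jasmonoyl-isoleucine, had 1.3, 27.2 and 12.3 and 2.62, 6.34 and 2.5 TPM. UGT84A1, a glucosyltransferase of hydroxycinnamates, had 0.0867, 19.8 and 6.46 TPM, and FAMT, a farnesoic acid methyltransferase, 1.38, 77.6 and 34.1 TPM.

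Cell wall enzymes numbered 5 of 101 eligible XTH, expansin and pectin genes, a family that made up 0.698% of all eligible genes. EXLA2, an expansin-like protein, had means of 25.1, 75.9 and 28.8 TPM, PME44, a pectin methylesterase, 49.6, 176 and 70.4 TPM, and XTH18, which cuts and rejoins xyloglucan, 27.9, 68.2 and 27.4 TPM. The pectin lyase-like gene AT1G48100 stood out for its step from mock, at 1.25, 77.5 and 29.9 TPM, and AT1G60590 of the same fold had 1.45, 28.4 and 11 TPM. XTH18 was the only 1 of these whose 2 h libraries (32.9 to 95.5 TPM) overlapped mock (14.2 to 56.4).

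Protein kinases, at 3.08% of all eligible genes, gave 5 of 446: CIPK20, a kinase of the calcium-sensing CBL network, the receptor-like kinases CRK12, CRK42 and IOS1, and AT1G33260. CIPK20 had means of 22.2, 50 and 20.8 TPM and IOS1 7.49, 22.1 and 10.2 TPM. The calmodulin-like gene CML39 (AT1G76640) was the only member from a list of 8 touch and calcium genes, with 0.203, 7.83 and 3.33 TPM. Its libraries were uneven, at 8.16, 17.4 and 6.87 TPM in bro1-1 at 2 h and 2.22, 1.03 and 14.6 at 4 h.

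In gene structure, the members were compact. At least 1 transcript without an intron was annotated for 34% of members and 13.6% of genes of at least 5 TPM at 2 h, the median number of exons was 2 against 5, and the median transcript length was 1392.5 against 1623 bases. A single transcript was listed for 72% of members and 50.8% of genes. These figures include the members that entered on very few reads of a short transcript, and they were not computed without them. Protein-coding genes numbered 93. Members lay on all 5 chromosomes, with 27, 13, 20, 18 and 22 on chromosomes 1 to 5. Only AT5G41590 (chr5:16632086-16634012) and the reticulon-like gene BTI3 (chr5:16636029-16637908) were direct neighbours, on opposite strands, and AT1G65486 and AT1G65490 had 1 gene between them. Another annotated gene overlapped 32 members, among them COL1, COL2, CAT2, AFR and GUN4 on the antisense strand, and since the strand setting of the counting was not given, reads of overlapping genes cannot be told apart.

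To test the steps in libraries with no part in the choice, the rule was applied to 1 genotype and the genes it chose were tested in the other. The 100 genes chosen in the 9 WT libraries included 64 of the members, those chosen in bro1-1 included 62, and 37 were in all 3 lists. Of the WT-chosen genes, 92 were tested in bro1-1 and 88 were called higher at 2 h than at mock by edgeR's quasi-likelihood test (adjusted p under 0.05 and a log2 fold change over 1), against 13.4% of all genes tested, with a median of 3.08. Of the bro1-1-chosen genes, 70 of 88 were called higher in WT, against 10.9%, with a median of 2.80. For these lists, which are not the 100 members themselves, the rise at 2 h was thus found in libraries that had not chosen them.

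The fall from 2 h to 4 h was tested in the same way. For the WT-chosen genes in bro1-1 it was called in 23 of 92, against 0.505% of all genes, with a median log2 fold change of -1.09 and 87 of 92 below 0. For the bro1-1-chosen genes in WT it was called in 38 of 88, against 1.55%, with a median of -1.31 and 82 below 0. The count in bro1-1 was not stable when a library was left out and its group entered with 2: it was 0 without bro1-1 ABA 2 h replicate 2, without ABA 2 h replicate 3 or without ABA 4 h replicate 1, 8 without ABA 4 h replicate 2 and 6 without ABA 4 h replicate 3. The median of these fits ran only from -1.28 to -0.92, with 84 to 90 of 92 below 0, and the calls over all genes fell too, to between 0 and 30 from 100. With the replicate number as a block the count was also 0 with a median of -1.11, and DESeq2 gave 49 (1.36% of all genes). In WT the count was 19 without ABA 2 h replicate 1 (0.744% of all genes) and 21 without ABA 2 h replicate 2 (0.857%). It was 18 without ABA 4 h replicate 1 (0.522%). In these fits the calls over all genes fell as well. Leaving out any other WT library gave 32 to 39 (1.18% to 1.88%).

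Between the genotypes no member was called at any time point. At mock 0 of 78 tested members were called (0.0153% of all genes), at 2 h 0 of 92 (0.0308%) and at 4 h 0 of 90 (0.0202%), by the quasi-likelihood test of edgeR with p-values adjusted after Benjamini and Hochberg. Neither interaction of genotype with a step called a member or any other gene (0%), nor did the genotype effect over all 18 libraries call one (0.0485%). DESeq2 called 2 members at 2 h, LHY and COL2 (0.354% of all genes). At 4 h it called 9 (1.35%), which were AT1G20070, AT5G44050, AT2G15020, PRR9, BBX16, BBX30, BBX31, CBF2 and FAMT, and over all libraries 1, BBX32 (0.0932%). Each was higher in bro1-1. Of these, AT1G20070, AT5G44050, CBF2 and FAMT were in the WT-chosen list only. LHY, COL2 and BBX16 were in the bro1-1-chosen list only, so the differences of these genes are tied to the choice. An unadjusted p under 0.05 was reached at mock by 0 members (1.19% of all genes), at 2 h by 14 (7.15%), 13 of them higher in bro1-1 (3.52%), and at 4 h by 33 (10.1%), 31 of them higher in bro1-1 (5.84%). For the steps from mock to 2 h and from 2 h to 4 h it was reached by 7 (5.12%) and 4 (3.12%), with the step higher in bro1-1 for 6 (2.89%) and 4 (1.75%). Over all libraries it was reached by 12 (6.5%), and all 12 were higher in bro1-1 (3.75%). Without WT mock replicate 1, edgeR called 1 member over all libraries, AT1G20070, whose difference is tied to the choice as said above. The library left out held the highest WT mock value of this gene. The share of all genes called in that fit is not given here.

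As a set the members leaned towards bro1-1 in ABA and towards WT at mock. The median log2 fold change of bro1-1 over WT was -0.22 at mock, 0.25 at 2 h and 0.42 at 4 h, beside -0.01, 0.00 and -0.01 over all genes tested. It was above 0 for 24 of 78 members at mock (48.1% of all genes), 75 of 92 at 2 h (50%) and 69 of 90 at 4 h (49%). Over all 18 libraries it was above 0 for 66 of 92 (48%), and the 2 interactions were above 0 for 71 of 92 from mock to 2 h (52.2%) and 55 of 92 from 2 h to 4 h (48.5%). The number of members with an unadjusted p under 0.05 at 2 h was 8 without bro1-1 replicate 2, 9 without bro1-1 replicate 3 and 23 without bro1-1 replicate 1. At 4 h it stayed between 27 and 39 whichever library was left out. The shares over all genes in these fits are not given here. A change in these counts therefore cannot be told apart from a change over all genes.

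The difference at 4 h moved with the genotype through which a member was chosen. Of the 22 tested members found in the WT-chosen list but not in the bro1-1-chosen list, all 22 were higher in bro1-1 at 4 h, with a median of 0.78. Of the 23 found only in the bro1-1-chosen list, 9 were higher in bro1-1, with a median of -0.22. The members in both lists had a median of 0.39, with 30 of 36 above 0. At 2 h the medians of these groups were 0.21, 0.22 and 0.35. The counts and medians over all members are therefore a description that the choice of genes shaped in part.

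Single libraries moved with this lean. Of the 6 libraries at 2 h, WT replicate 3 was the lowest for 53 of the 100 members and for 28.4% of all genes of at least 5 TPM, and bro1-1 replicate 2 was the highest for 42 and for 8.09%. At 4 h bro1-1 replicate 3, which also held the seed transcripts given above, was the highest for 44 members (29.96% of genes). At mock WT replicate 1 was the highest for 66 members (28.3%). The part of these libraries in the genotype differences was tested only by leaving each out in turn.

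**Figure D5:**
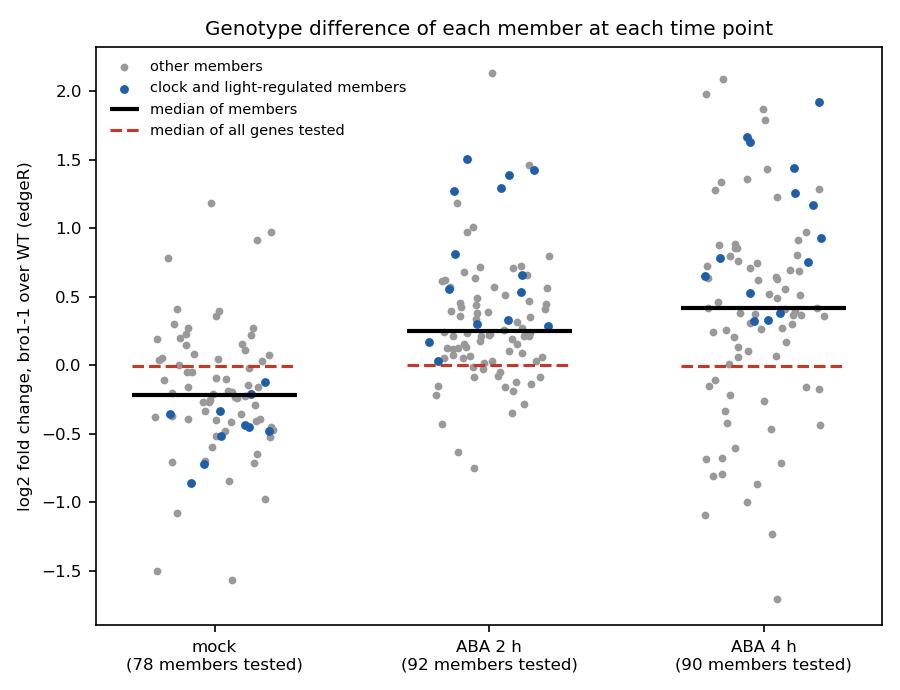
Log2 fold change of bro1-1 over WT from edgeR for each tested member (points, spread sideways for legibility) at mock, 2 h and 4 h, with the 14 clock and light-regulated members in blue. The black line is the median of members (-0.22, 0.25 and 0.42) and the dashed red line that of all genes tested, which lies close to 0.

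The clock and light-regulated members all lay on the same side within each time point. Their log2 fold change was below 0 for all 10 tested at mock, with a median of -0.45, and above 0 for all 14 at 2 h and 4 h, with medians of 0.61 and 0.85. The group was formed after the values were seen and has no test of its own. LHY, COL2, LNK4 and BBX16 were in the bro1-1-chosen list and not in the WT-chosen list. Their differences are therefore tied to the choice. AFR was in neither list and the rest of the group in both. In 11 of the 14 genes the lowest library at 2 h was WT replicate 3. WT replicate 1 was the highest mock library in CCA1, LHY, PRR9, LNK3, LNK4, COL1 and COL2. Without it, the WT mock values of CCA1, PRR9, LNK3 and COL2 lay within the bro1-1 range. Those of LHY lay across its upper end, and those of LNK4 and COL1 stayed above it. How the group stood at mock without that library was not tested.

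LHY had the smallest p of all members at 2 h. Its bro1-1 libraries, at 10.5, 15.3 and 18.1 TPM, were all above its WT libraries, at 7.97, 5.4 and 4.17 TPM. The log2 fold change was 1.3 (standard error 0.268) with an adjusted p of 0.462 from edgeR, and DESeq2 called it with an adjusted p of 0.00379. COL2 was next at 1.42 (0.298, adjusted p = 0.462 from edgeR), also without overlap of the genotypes. Both were in the bro1-1-chosen list and not in the WT-chosen list, and their WT libraries at 2 h overlapped mock, so their genotype differences, the interaction of COL2 included, are tied to the choice and are given as a description. COL2 had the smallest p for the interaction from mock to 2 h as well, at 1.78 (0.534, adjusted p = 0.909 from edgeR), followed by UGT84A1 at 5.40 (1.71, adjusted p = 0.909 from edgeR), whose mock libraries held 0.37, 0.05 and 0.10 TPM in WT and 0 in bro1-1.

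At 4 h the uncharacterized gene AT1G20070 came closest to a call. In WT, AT1G20070 measured 13.9, 2.58 and 2.15 TPM at mock, 21.1, 26.7 and 18.3 at 2 h and 7.65, 7.79 and 7.42 at 4 h. In bro1-1, AT1G20070 measured 2.18, 3.2 and 3.52 TPM at mock, 29.3, 54.5 and 50.9 at 2 h and 16.7, 21.9 and 24.1 at 4 h. The bro1-1 libraries at 4 h were all above those of WT, as they were at 2 h. Its log2 fold change at 4 h was 1.43 (0.199) with an adjusted p of 0.0918 from edgeR and 4.2e-06 from DESeq2. AT5G44050, a MATE family transporter, followed at 1.28 (0.226, adjusted p = 0.206 from edgeR), with 9.59, 13.2 and 13.9 TPM in bro1-1 and 4.97, 4.34 and 5.43 in WT. Both genes were in the WT-chosen list and not in the bro1-1-chosen list, so their lower 4 h level in WT is likewise tied to the choice.

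BBX32 had the smallest p over all 18 libraries. Its bro1-1 libraries at 2 h held 9.74, 18.8 and 23.7 TPM and its WT libraries 10.5, 5.66 and 2.21 TPM, which overlap, and at 4 h 2.64, 4.43 and 5.97 and 2.28, 1.14 and 1.26 TPM, which do not. The log2 fold change across time points was 1.54 (0.332, adjusted p = 0.219 from edgeR), and FAMT followed at 1.38 (0.386, adjusted p = 0.530 from edgeR). FAMT was in the WT-chosen list and not in the bro1-1-chosen list, so its difference is tied to the choice.

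At mock the smallest p belonged to SIP1 at -0.65 (0.362) and RD28 at -0.45 (0.258), both with an adjusted p of 1.00 from edgeR. For the step from 2 h to 4 h it belonged to CIPK20 at 0.97 (0.334) and AT2G34930, a leucine-rich repeat protein, at 1.25 (0.475), both with an adjusted p of 0.996 from edgeR. AT2G34930 was in the WT-chosen list and not in the bro1-1-chosen list, so its difference is tied to the choice. CIPK20 held 72.3, 49.2 and 42.3 TPM in WT and 35.1, 50.8 and 50.3 TPM in bro1-1 at 2 h, which overlap, and 13.2, 16.7 and 17.4 and 20.6, 30.6 and 26.5 TPM at 4 h, where every bro1-1 library was higher.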

How the data were processed

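Reads of 18 libraries were trimmed with BBDUK2, cleared of ribosomal RNA with Bowtie 2 (2.3.5.1) and quantified with RSEM (1.2.30), according to the study's methods and the submitters' processing notes. The authors deposited expected counts per gene, not normalized between libraries, and TPM, scaled within each library, beside the transcript length of each gene. The genome build, annotation release and strand setting are not given in the sources used here. Positions and promoter sequence were read from the TAIR10.1 genome and annotation of NCBI RefSeq.

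The 100 genes were ranked on mean TPM with a pseudocount of 1. Expected counts were rounded, filtered with filterByExpr, scaled with TMM factors and tested with edgeR 4.0.16 (R 4.3.3) by the quasi-likelihood test, on the 6 libraries of each pair of groups, the 12 of an interaction or all 18, with Benjamini-Hochberg adjustment over all genes tested. A call needed a log2 fold change beyond 1 in size together with an adjusted p below 0.05, and only members are printed. The p-values rest on the spread between libraries within groups, pooled over the groups of a fit and moderated across genes. The fit of all 18 libraries had time point and genotype without their interaction. Its spread therefore also holds genotype differences that changed with time. The code was tested on simulated data. The replicate number as a block, leaving out each library, DESeq2 1.42.0, factors from relative log expression, and dropping the filter or the fold threshold were tried as alternatives; for membership, other pseudocounts, floors, averages and units and each genotype alone.

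Members, lists and tests were chosen with earlier results of these data known. Named genes are the 12 highest-ranked members, members of listed pathways or of families with at least 3 members, the 5 most abundant at 2 h, the 3 furthest above and below mock at 4 h, the 2 with the smallest p in each genotype test, the last 3 kept and first 3 left out, and direct neighbours. Other genes, the role groups, the B-box, RVE, LNK and CDF lists, the strings AAATATCT, AAAAATCT and CCACAC, and counts at an unadjusted p were added after the values were seen. Promoter windows cover 500 bases before the annotated start, and 12 bases on each side of a motif are shown.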

Additional observations from a re-analysis of the deposited data

How the results depend on the processing

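The fold changes given for the members with the smallest p kept their sign in every alternative run, but counts of calls did not all hold. The fall of the WT-chosen genes in bro1-1 was called in 0 to 49 genes over 11 alternatives. DESeq2 raised the members called between genotypes from 0 to 2 at 2 h, to 9 at 4 h and to 1 across time points, where it called 0.354%, 1.35% and 0.0932% of all genes, and gave 49 (1.36% of all genes) in place of 23 for the fall of the WT-chosen genes in bro1-1, which was 0 with the replicate block. Members at an unadjusted p under 0.05 at mock rose from 0 to 1 with DESeq2 and to 2 without a filter on low counts, and those for the step from 2 h to 4 h fell from 4 to 2 with the replicate block. Applied to WT alone or bro1-1 alone, the rule kept 64 or 62 of the 100 genes. Other pseudocounts, floors, the median and TMM-scaled CPM kept 75 to 94, and a minimum of 10 counts in 4 of the 6 libraries at 2 h, chosen after seeing the data, kept 92.

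Leaving out each library in turn gave 82 to 99 members kept, the fewest without bro1-1 ABA 4 h replicate 3. Members at an unadjusted p under 0.05 ranged from 0 to 6 at mock, 8 to 23 at 2 h, 27 to 39 at 4 h, 3 to 16 for the step from mock to 2 h, 2 to 8 for the step from 2 h to 4 h and 10 to 21 across time points, the last with 0 to 1 called. The fall of the WT-chosen genes in bro1-1 was called in 0 to 25 and that of the bro1-1-chosen genes in WT in 18 to 39, while their rise was called in 83 to 88 and 59 to 77. Where a library was left out, its group entered with 2 libraries and the edgeR fit was otherwise the same. For the counts at an unadjusted p and the calls across time points, the shares over all genes in these fits are not given here.

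Replicate numbers are shared between groups in the labels, and whether they pair libraries was not settled. In 0 of 15 pairs of groups was every same-numbered correlation of deviations over 0.1 (range -0.411 to 0.463). The highest value was between the replicate 1 libraries of WT mock and bro1-1 mock. With the replicate block, 20 members had an unadjusted p under 0.05 at 2 h and 35 at 4 h, and none was called. The shares over all genes with the block are not given here. Depth limits the members other than the 91 with at least 10 counts in every 2 h library.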
